A study of Mus musculus with 17 samples.

Results

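The neurexins, neuroligins and Lrrtm proteins are synaptic adhesion molecules. The 9 genes described here are Nrxn2, Nrxn3, Nlgn1, Nlgn2, Nlgn3, Lrrtm1, Lrrtm2, Lrrtm3 and Lrrtm4, chosen by name, of the genes counted in the nuclei of mouse cortex after chronic unpredictable stress (CUS). All 9 were found in the bulk tables and in the single-nucleus tables. Nuclear RNA was counted in bulk from the medial prefrontal cortex (mPFC) of 4 control and 5 CUS mice at postnatal day 90, and nucleus by nucleus (sNucDrop-seq) from the neocortex of 4 control and 4 CUS mice at postnatal day 80. All were male C57BL/6 mice (the J substrain in the study's methods), and each library came from 1 mouse. CUS mice went through changing stressors each day, and control mice were kept in another room and handled daily. The bulk mice also went through behavioral tests before tissue was taken, so region, age and handling differ between the bulk and the single-nucleus mice.

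Neurexins sit on the presynaptic membrane and reach across the synaptic cleft to bind postsynaptic partners. Neuroligins and Lrrtm (leucine-rich repeat transmembrane) proteins are such partners. Nlgn1 is found mainly at excitatory synapses, Nlgn2 at inhibitory synapses, Nlgn3 at both, and the Lrrtm proteins at excitatory synapses. In the cortex these genes help to form, specify and maintain synapses.

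To show the regulatory DNA of the members that the bulk comparison turned on, the 250 bases before a RefSeq start are given for Lrrtm1, the member that rose, and for Lrrtm4, the member with the lowest fold change (GRCm38.p6, plus strand, chr6:77242227-77242476 and chr6:80018627-80018876). Capitals mark motif matches on either strand. The core of the YY1 site was searched as CCATNTT, with N for any base. The half-site of the cyclic AMP response element was searched as TGACG. Of the common promoter motifs, the TATA box was searched as TATAAA. The CCAAT box was searched by the letters of its name. For the GC box the letters were GGGCGG, and no motif contains another.
Lrrtm1: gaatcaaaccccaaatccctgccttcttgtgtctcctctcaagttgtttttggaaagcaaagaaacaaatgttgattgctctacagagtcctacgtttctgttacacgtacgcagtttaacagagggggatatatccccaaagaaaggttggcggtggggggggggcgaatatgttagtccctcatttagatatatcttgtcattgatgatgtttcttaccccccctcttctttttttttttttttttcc
Lrrtm4: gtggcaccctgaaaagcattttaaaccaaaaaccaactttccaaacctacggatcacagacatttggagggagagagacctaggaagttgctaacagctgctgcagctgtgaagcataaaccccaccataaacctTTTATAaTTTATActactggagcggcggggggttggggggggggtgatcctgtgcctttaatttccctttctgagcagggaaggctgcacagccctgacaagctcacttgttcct
The Lrrtm1 window held none of these motifs, and the Lrrtm4 window held the TATA box letters on the minus strand at 115 and 108 bases before the start. Such windows were at hand for 6 of the 9 members, 10 windows in all, and neither the YY1 core nor the half-site was in any of them. Across 32851 windows of the same length, 12.4% held the YY1 core, 17.8% the half-site, 12.4% the TATA box, 33.8% the CCAAT box and 32.7% the GC box. A match describes these letters only.

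The bulk libraries held 26188825 to 30525015 reads on genes. In the single-nucleus tables, 26698 of 40000 barcodes passed the filters, with 1935 to 4235 nuclei and 4699542 to 12477099 unique molecular identifiers (UMIs) per mouse. Any pair of the 8 mice shared 0 to 2 of the kept barcodes. Nuclei were grouped into 27 classes of more than 200 nuclei, and each class carries the name of a cell type only where its markers were present (for example Ex_L2/3-like, excitatory neurons of layer 2/3), and otherwise that of its leading gene. The mice of the single-nucleus arm were handled in batches, and the labels do not say which mouse belonged to which, so no batch term was fitted and no within-batch value is given.

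In bulk, the members differed widely in level. Levels are given as CPM, the reads of a gene scaled to a common library size. Per kilobase of gene span, which includes introns, control mPFC gave 3.95 ± 0.613 CPM per kb for Lrrtm2, 3.85 ± 0.328 for Nrxn3, 3.66 ± 0.333 for Nlgn1 and 3.14 ± 0.174 for Lrrtm4 (SD, n = 4). Nlgn2 stood at 2.86 ± 0.363, Lrrtm3 at 2.51 ± 0.244 and Nlgn3 at 2.27 ± 0.0735 CPM per kb. Of the 9, the lowest were Nrxn2 at 0.96 ± 0.227 and Lrrtm1 at 0.51 ± 0.0389 CPM per kb. The first 3 lay within 1 SD of their neighbor in this order, and nuclear reads fall largely on unspliced RNA, so these are levels over spans of 6.01 kb (Lrrtm2) to 1612 kb (Nrxn3). In the mm10 annotation of the files, Nrxn3 lies on chromosome 12 (88722876 to 90334935), Nrxn2 on 19 (6418731 to 6544169), Nlgn1 on 3 (25426215 to 26332460), Nlgn2 on 11 (69823122 to 69837784), Nlgn3 on X (101299168 to 101325963), Lrrtm3 on 10 (63928472 to 64090277) and Lrrtm4 on 6 (80018877 to 80810143). Exons cover 0.782% of the span of Nrxn3, 0.777% of Lrrtm4 and 1.48% of Nlgn1, against 39.5% of Nlgn2, 34.6% of Nlgn3 and 20.1% of Lrrtm1 (GENCODE vM21). For Lrrtm2 exons cover 100% of the GENCODE span, which is not the same as its span in the files. Whether introns were counted is not given, so the order per kb mixes genes of unlike exon share.

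CUS against control was tested in bulk with edgeR, and 1 of the 9 members, Lrrtm1, was called at a false discovery rate (FDR) of 0.05, in the direction of higher in CUS. All 9 members passed the filter on low counts. Of 18394 genes tested, 606 (3.29%) were called, 392 (2.13%) lower and 214 (1.16%) higher in CUS. Lower calls were 64.7% of all calls, and 75.3% of 822 calls without scaling factors (TMM). The member fold changes were above 0 for 8 of the 9 and below 0 for 1, where 48.7% of all genes were below 0, with a median log2 fold change of 0.13 against 0.01 over all genes tested. An unadjusted p under 0.05 was met by 3 members (Lrrtm1, Lrrtm4 and Lrrtm2) and by 21.5% of all genes. In bulk tissue, a change in the number of nuclei of a type and a change in RNA per nucleus cannot be told apart.

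Lrrtm1 encodes a postsynaptic partner of neurexins at excitatory synapses (chromosome 6, 77242689 to 77257791, plus strand, mm10). Its level in the 4 control mice was 7.32, 7.15, 8.44 and 7.89 CPM, and in the 5 CUS mice 10.7, 10.6, 11.1, 12.3 and 11.1 CPM. The highest control mouse lay below the lowest CUS mouse. The groups did not overlap, in either direction, for 8.76% of the genes tested. The means were 7.70 ± 0.587 and 11.1 ± 0.659 CPM, a log2 fold change of 0.53 (SE 0.08, edgeR FDR 0.0085, n = 4 and 5). These values rest on 194 to 370 reads per mouse.

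Lrrtm4, another postsynaptic neurexin partner that also binds heparan sulfate proteoglycans, had values of 2476, 2613, 2545 and 2294 CPM in control and of 2173, 2375, 2188, 1903 and 1961 CPM in CUS mice. One CUS mouse lay inside the control range. Its log2 fold change was -0.23 (SE 0.07, edgeR FDR 0.100), which missed the threshold. It was called by DESeq2 (FDR 0.037) and without TMM factors (FDR 0.029). Those fits called 1402 and 822 genes in all, against 606 in the main fit. Lrrtm2 had 24.7, 22.5, 19.5 and 28.3 CPM in control and 24.7, 27.5, 26.7, 32.4 and 30.8 CPM in CUS mice, with a log2 fold change of 0.26 (SE 0.11, edgeR FDR 0.177). Lrrtm3 had a log2 fold change of 0.15 (SE 0.07, edgeR FDR 0.248), with means of 406.6 ± 39.5 and 449.7 ± 21.6 CPM. The groups overlapped for Lrrtm2 and Lrrtm3. Lrrtm2 was 0.17 without control replicate 3 (edgeR FDR 0.303) and 0.36 without control replicate 4 (edgeR FDR 0.070). Lrrtm3 was 0.09 without control replicate 4 (edgeR FDR 0.377). With other mice left out, Lrrtm3 reached up to 0.20 and its edgeR FDR down to 0.130.

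Among the neurexins, Nrxn2 had 102.5, 121.6, 160.5 and 97.9 CPM in control mice and 144.6, 130.9, 137.0, 129.7 and 135.0 CPM in CUS mice. Control replicate 3 was above every CUS mouse and the other 3 controls were below. The log2 fold change was 0.17 (SE 0.12, edgeR FDR 0.442), and without control replicate 3 it was 0.33 (FDR 0.017). In that fit 1508 genes were called in all, against 606 with all mice. Leaving out another control gave a smaller value in 2 cases, 0.09 (edgeR FDR 0.704) without control replicate 1 and 0.09 (FDR 0.688) without control replicate 4. Nrxn3 had means of 6209 ± 528 and 6469 ± 432 CPM and a log2 fold change of 0.06 (SE 0.08, edgeR FDR 0.700). In control replicate 4 the summed striatal Drd1 markers reached 155 CPM against at most 62.2 CPM in the other controls. Nrxn3 was 5422 CPM in that mouse against 6397 to 6528 CPM in the other 3 controls. A link between these values was not tested. In single nuclei, the UMI-based CPM of Nrxn3 (mean of 8 mice) was 4067 in Striatal_Drd1-like and 3839 in Striatal_Drd2-like nuclei. Its median over the classes was 2663. Without control replicate 4 the log2 fold change of Nrxn3 in bulk was 0.0087 (edgeR FDR 0.952).

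The neuroligins did not pass the threshold in bulk. Nlgn1 had means of 3316 ± 302 CPM in control and 3390 ± 157 CPM in CUS mice (log2 fold change 0.03, 95% interval -0.11 to 0.17). Nlgn2, the inhibitory-synapse neuroligin, had 41.9 ± 5.33 and 45.8 ± 2.50 CPM (0.13, interval -0.03 to 0.28). Its log2 fold change was 0.21 without control replicate 3 (edgeR FDR 0.0612) and 0.08 without control replicate 4 (FDR 0.565). Nlgn3 had 60.9 ± 1.97 and 62.1 ± 4.14 CPM (0.03, interval -0.09 to 0.14). Changes of the size seen for Lrrtm1 lie outside all 3 intervals.

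**Figure D1:**
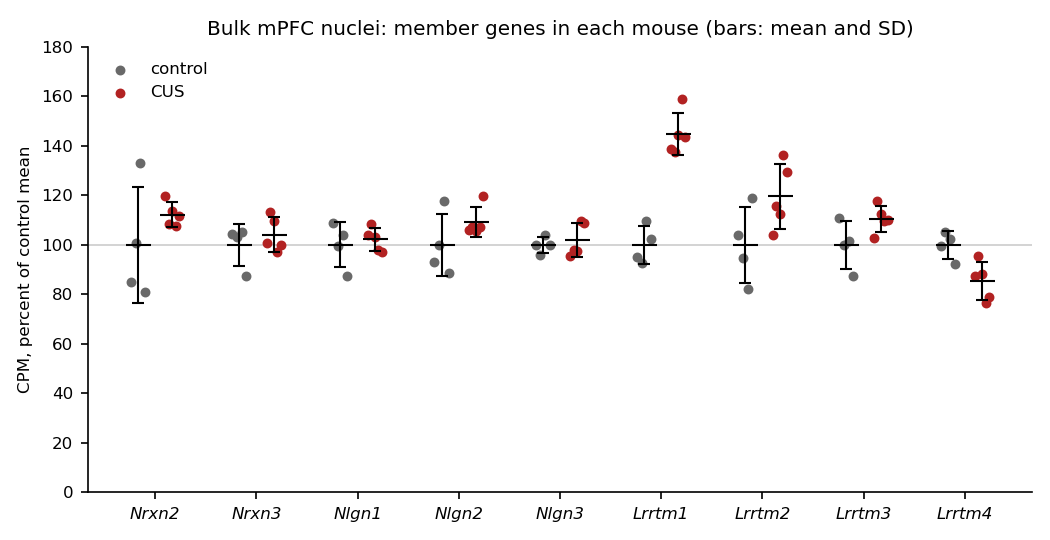
Bulk mPFC nuclei. Each point is 1 mouse (4 control, 5 CUS) and gives a gene's CPM as percent of its control mean, with bars for mean and SD. Lrrtm1 is the gene whose CUS mice (10.6 to 12.3 CPM) all lie above its control mice (7.15 to 8.44 CPM).

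Several members share their position with another gene, and the use of strand in bulk counting is not given in the sources used here. Lrrtm1 lies within Ctnna2, on the opposite strand and with 0 shared exonic bases. Ctnna2, an alpha-catenin, stood at 1.82 CPM per kb of its span in control mice, above Lrrtm1, and had a log2 fold change of 0.03 (SE 0.06, edgeR FDR 0.826). Lrrtm2 lies within Ctnna1 (log2 fold change -0.17, SE 0.06, edgeR FDR 0.126) and Lrrtm3 within Ctnna3, which fell in CUS (-0.51, SE 0.09, edgeR FDR 0.0138). The directions of these 3 hosts were thus 0.03, -0.17 and -0.51 beside 0.53, 0.26 and 0.15 for the genes inside them. Nlgn3 shares 3823 exonic bases with Gm21986 on the same strand, so its count is uncertain. For Nlgn1 the antisense A830092H15Rik, and for Nrxn2 the antisense Gm14964, were counted at 2.01 and 0.45 CPM. Gm23989, within Nrxn3, had 0.92 CPM. Gm14967, Slc22a12, Gm27313 and Gm4409 also overlap a member and did not pass the filter. Lrrtm2 shares 95 exonic bases with Ctnna1, Nlgn1 1229 with A830092H15Rik, Nrxn2 207 with Gm14964 and 682 with Slc22a12, and Lrrtm4 1543 with Gm4409. These pairs lie on opposite strands, so those counts are uncertain as far as the use of strand is not known.

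Other genes of synaptic contacts were listed as ligands, intracellular partners and splicing factors of neurexins and neuroligins, and as other synaptic adhesion receptors. Of these 71 genes, 67 were tested in bulk, 5 rose, 0 fell, and 62 did not pass, where 3.29% of all genes were called and 1.16% were called higher. An unadjusted p under 0.05 was met by 20 of the 67, against 21.5% of all genes. The median log2 fold change was 0.04 against 0.01 over all genes. Among the other adhesion receptors (38 tested) 2 rose, namely Tenm4, a teneurin (997 ± 88.3 to 1311 ± 21.5 CPM, log2 fold change 0.40, edgeR FDR 0.0097), and Ntrk3, the neurotrophin-3 receptor (946 ± 130 to 1324 ± 48.8 CPM, 0.48, FDR 0.013). Among ligands and extracellular partners (17 tested) 2 rose, Clstn2, a calsyntenin (0.42, FDR 0.0277), and C1ql3, a secreted C1q-like protein (0.28, FDR 0.0385). Of the intracellular partners (9 tested), the scaffold gene Lin7b rose (0.31, FDR 0.0307). None of the 3 splicing factors of neurexins passed in edgeR (1 had an unadjusted p under 0.05). In the nuclei summed over all classes, 52 of the 71 were tested and 0 were called by edgeR (0.0199% of all genes were), with 4 at an unadjusted p under 0.05, against 8.01% of all genes.

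Marker genes of other cell types give the makeup of the bulk samples. In all 20 marker lists the summed CPM overlapped between the groups. Without control replicate 3, an alternative chosen after seeing the data, 3 of the 20 lists no longer overlapped, all higher in CUS, namely the excitatory, Ex_L5/6 and Inh_Vip lists. Of 6 astrocyte markers 3 fell and the summed level was 2063 to 2423 CPM in control and 1890 to 2143 CPM in CUS mice. Of 7 oligodendrocyte markers 1 fell (295 to 696 against 309 to 392 CPM), and of 5 markers of newly formed oligodendrocytes 2 fell (364 to 428 against 339 to 372 CPM). Of 5 excitatory markers 1 rose, with a median log2 fold change of 0.24 over the list (1301 to 1918 against 1685 to 1792 CPM). The control value of 1918 CPM was that of control replicate 3, and the other 3 controls, at 1301 to 1460 CPM, were below every CUS mouse. The striatal Drd1 and Drd2 lists had medians of -0.77 and -0.88 with 0 called (41.1 to 155 against 35.6 to 54.0 CPM, and 39.0 to 159 against 31.6 to 47.5 CPM). In the other 14 lists, 2 genes rose and 3 fell. Among these, the inhibitory list had a median of -0.26 with 0 called (926 to 1099 against 828 to 1039 CPM). No marker of any list was at 0. The part of these shifts in the Lrrtm1 result was not tested. In single nuclei, Lrrtm1 was 22.5 ± 11.0 CPM in astrocyte-like nuclei (UMI-based CPM, mean and SD of 8 mice), the lowest level of the 27 classes, from 35 UMIs. The excitatory Ex_L6-like nuclei were about as low, at 23.8 ± 7.35 CPM.

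The single-nucleus data next gave the level of each member in each class. These levels are UMI counts on the same CPM scale, scaled over all classes, as mean ± SD of 8 mice, and UMI counts are not scaled by length, so they are compared between classes and not between genes. The order of classes follows the mean log2 level. No pair of neighbors in that order differed for any member (0 of 234 pairs, exact sign-flip permutation test, two-sided, smallest adjusted p 0.203, smallest p the test can give 0.0078). With that smallest p, a pair could pass over 234 pairs only if many pairs reached it together, so the absence of calls says little about the size of the steps. The unadjusted p was at its smallest for 9 pairs, each with all 8 mice in 1 direction. Among them, Nlgn1 was higher in Fyb2-led than in Ex_L5-like nuclei by 1.21 ± 0.23 on the log2 scale, and Lrrtm4 in Ex_L5-like than in Cpne7-led nuclei by 0.63 ± 0.18 (SD, n = 8).

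Nrxn3 was highest in Inh_Vip-like nuclei, at 7532 ± 1566, followed by Inh_Sst-like nuclei at 5362 ± 965 and Ex_L6-like nuclei at 4661 ± 708. It was lowest in astrocyte-like nuclei at 511 ± 124, and all 8 mice had the Vip class above the astrocyte class. Nrxn2 was flatter across neurons. Its top class was OPC-like nuclei, oligodendrocyte precursors, at 357 ± 149, then Ndst4-led nuclei at 265 ± 67.6 and Inh_Vip-like nuclei at 245 ± 35.6. In the 4 control mice alone these 3 classes lay within 1 SD of each other, at 240 ± 59.5, 225 ± 42.05 and 234 ± 27.5, and the mean of 8 includes the CUS mice, in which Nrxn2 was higher in OPC-like nuclei. Striatal_Drd1-like nuclei were among the lowest at 73.9 ± 12.3. Over the 27 classes the correlation of the levels of the 2 neurexins was -0.04 (a description, since the classes share 8 mice).

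Among the neuroligins, Nlgn1 was highest in Fyb2-led nuclei, an excitatory class, at 7439 ± 743, against 3253 ± 642 in Ex_L5-like and 3146 ± 651 in Ex_L4-like nuclei. Some interneuron classes were low, with 676 ± 128 in Inh_Sst-like and 727 ± 92.3 in Inh_Pv-like nuclei. The median over classes was 2447 for 14 excitatory classes and 1088 for 8 inhibitory classes, but the 2 kinds overlapped. The inhibitory Striatal_Drd1-like and Striatal_Drd2-like nuclei stood at 3029 ± 736 and 2378 ± 497, and the excitatory Claustrum-like nuclei at 708 ± 187. Nlgn2 and Nlgn3 were highest in OPC-like nuclei, at 89.6 ± 53.3 and 108 ± 79.3, from 57 and 67 UMIs in all. Across the neuronal classes these 2 genes stayed within 21.5 to 51.4 (Nlgn2) and 11.3 to 51.7 (Nlgn3) CPM.

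The Lrrtm genes were unlike each other. Lrrtm4 was highest in Ndst4-led nuclei at 4924 ± 938, Ex_L2/3-like nuclei at 4332 ± 847 and Ex_L5-like nuclei at 4282 ± 934. It was 725 ± 154 in Ex_L6-like nuclei and 239 ± 62.5 in astrocyte-like nuclei. Lrrtm2 had another layer pattern, with 218 ± 43.2 in Ex_L6-like, 176 ± 39.8 in Ctgf-led and 66.4 ± 9.55 in Ex_L2/3-like nuclei. Lrrtm3 was highest in the 2 striatal classes, at 514 ± 72.3 (Drd2) and 481 ± 98.6 (Drd1), and in Ex_L6-like nuclei at 447 ± 52.8. Lrrtm1 peaked in Fyb2-led nuclei at 161 ± 38.4, was 73.3 ± 16.2 in Ex_L2/3-like nuclei and was 23.8 ± 7.35 in Ex_L6-like nuclei. Between Ex_L6-like and Ex_L2/3-like nuclei, then, Lrrtm2 was higher in the deep layer, and Lrrtm1 and Lrrtm4 in the upper layer.

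Microglia-like nuclei, which are not neuronal, held 1742 ± 587 CPM for Nrxn3, 1242 ± 523 for Lrrtm4 and 1060 ± 435 for Nlgn1. Nrxn3 was lower in oligodendrocyte-like nuclei (1004 ± 427) and in astrocyte-like nuclei, and so was Lrrtm4, at 398 ± 152 and 239 ± 62.5. The excitatory marker genes Slc17a7 and Slc17a6 summed to 162.8 CPM in microglia-like, 59.4 in oligodendrocyte-like and 49.5 in astrocyte-like nuclei. The part of RNA from other nuclei in the levels of any class was not tested, and the neuronal levels above that lie under the microglia-like level, such as those of Lrrtm4 and Lrrtm1 in Ex_L6-like, Nlgn1 in Inh_Pv-like and Inh_Sst-like and Nrxn2 in Striatal_Drd1-like nuclei, carry that limit.

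**Figure D2:**
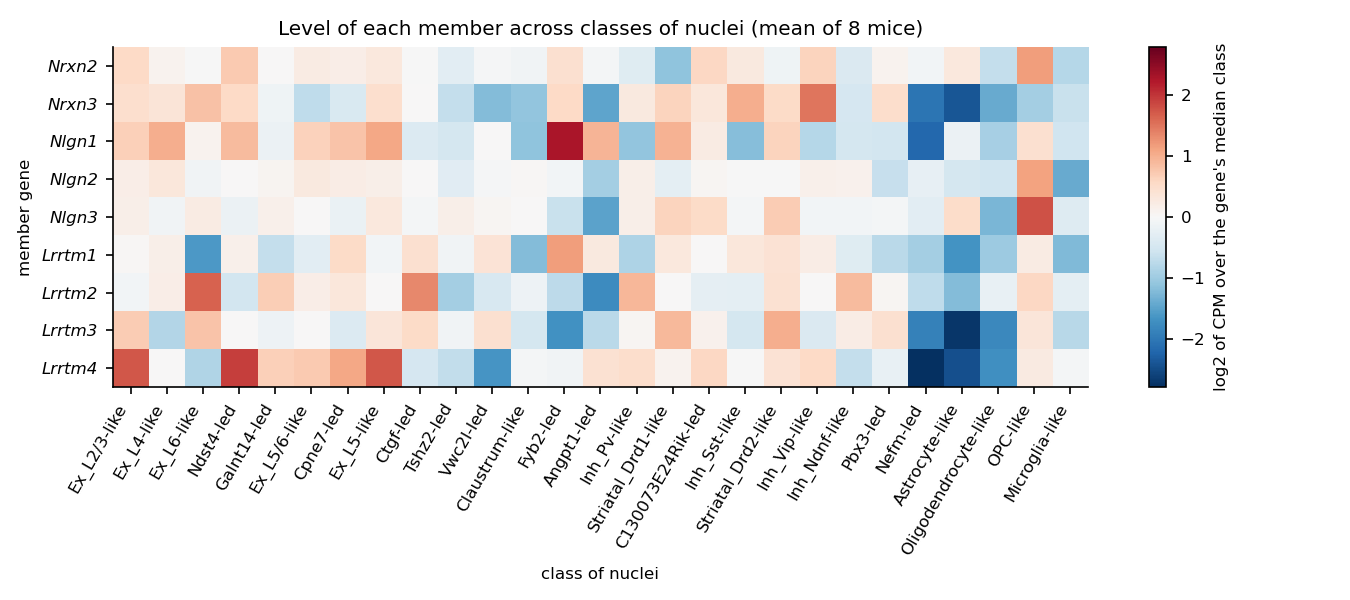
Level of each of the 9 members in 27 classes of nuclei (mean of 8 mice), as log2 of CPM over the gene's median class. Red is above and blue below that median, with Nlgn1 in Fyb2-led nuclei (7439) and Lrrtm4 in Ndst4-led nuclei (4924) standing out.

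The genes with the most similar pattern over the 27 classes, out of 5014 compared, were Rims2 for Nrxn3 (Pearson r 0.83) and Prkar2b (0.78), Fry (0.84) and Eftud2 (0.81) for Nlgn1, and Ppfia2 (0.80) and Parp1 (0.79) for Lrrtm4. For Lrrtm3 they were Rbfox1 (0.79) and Gabrg3 (0.76), for Lrrtm1 Dpp6 (0.71) and Fam69a (0.65), for Nrxn2 Arhgap35 (0.66) and Pdia6 (0.63), and for Lrrtm2 Htr1f (0.62) and Sema3e (0.60). Rims2 is an active-zone gene and Ppfia2 a liprin of the presynaptic scaffold. Nlgn2 and Nlgn3 were too low for this measure. Points share libraries, and r is a description.

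With all nuclei summed per mouse, none of the 7 members above the filter was called by edgeR at FDR 0.2 (1 had an unadjusted p under 0.05, as had 8.01% of genes tested, and likelihood ratio and DESeq2 fits called none of them). Nlgn2 and Nlgn3 were below the filter. Of 5018 genes tested, 1 (0.0199%) was called, and in 4.8% the groups did not overlap, which 0 of the members showed. Nrxn2 had 130.9, 156.3, 148.0 and 131.1 CPM in control and 232.2, 142.2, 194.5 and 171.6 in CUS mice. CUS replicate 2 was within the control range and the other 3 CUS mice were above it. The log2 fold change was 0.40 (SE 0.14, edgeR p 0.0128, FDR 0.596). Lrrtm1 had 64.3, 56.0, 55.8 and 54.9 in control and 73.6, 58.2, 64.8 and 66.7 in CUS mice, with a log2 fold change of 0.21 (SE 0.10, edgeR p 0.0636, FDR 0.596). Control replicate 1 stood apart from the other 3 controls. For Lrrtm4 the log2 fold change was -0.21 (SE 0.15, edgeR FDR 0.636), for Nlgn1 -0.15, for Lrrtm3 -0.14, for Nrxn3 -0.13 and for Lrrtm2 0.00. Without CUS replicate 2, edgeR called Nrxn2 (FDR 0.0665), Lrrtm1 (0.143), Lrrtm4 (0.166) and Nlgn2, and 828 genes in all (16.2%). Without CUS replicate 1 the log2 fold change of Nrxn2 was 0.26 (edgeR FDR 0.981) and that of Lrrtm1 0.14 (FDR 0.981).

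**Figure D3:**
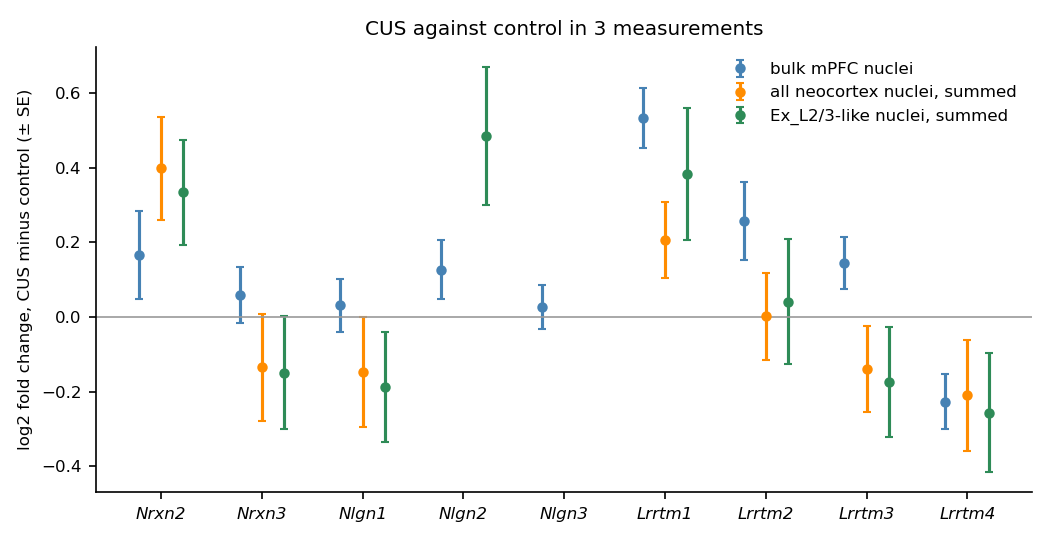
Log2 fold change, CUS minus control, with SE, in bulk mPFC nuclei (blue), all neocortex nuclei (orange) and Ex_L2/3-like nuclei (green). Ex_L2/3-like nuclei are part of the all-nuclei sum and come from the same mice. Lrrtm1 is above 0 in all 3 (0.53, 0.21 and 0.38) and Lrrtm4 below 0 in all 3 (-0.23, -0.21 and -0.26), and only the bulk value for Lrrtm1 passed its threshold. Nrxn2 is also above 0 in all 3, while Nrxn3, Nlgn1 and Lrrtm3 are above 0 in bulk and below 0 in the nuclei.

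Long genes differed between the single-nucleus libraries as a group. Genes with spans over 100 kb took 35.1% of UMIs in CUS replicate 1, 40.4 to 42.7% in the other 3 CUS mice and 40.3 to 45.5% in the controls. Nrxn3, at 2128 CPM, Nlgn1, at 1321, and Lrrtm4, at 1382, had their lowest value of all 8 mice in CUS replicate 1, while Nrxn2 at 232.2 had its highest. Of the long genes tested in all nuclei, 73.6% had a log2 fold change below 0, against 41.6% of the shorter ones. In bulk, 61.7% of the long and 46.4% of the shorter genes were below 0. Lrrtm4 (791 kb) was below 0 in bulk, while the long genes Nrxn3, Nlgn1, Lrrtm3 and Nrxn2 were above 0 there. The part of gene span in the member values was not tested. Nrxn2, at 125 kb, is itself a long gene. Without CUS replicate 1, the log2 fold changes in all nuclei were -0.02 for Nlgn1, -0.04 for Nrxn3, -0.04 for Lrrtm3, -0.10 for Lrrtm4 and 0.26 for Nrxn2, and edgeR called none of them.

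Within classes, the 27 classes gave 195 gene and class pairs above the filter. The call at FDR 0.2 was met by 1 pair, Nrxn2 in OPC-like nuclei, where 0.0760% of 2631 genes were called (0.0976% over all classes). OPC-like nuclei (436) carried their markers, with UMIs of Pdgfra in 74.3% of them against 0.723% of other nuclei. Nrxn2 had 284, 334, 248 and 243 CPM in the 4 control mice and 658, 444, 582 and 554 in the 4 CUS mice, scaled within the class. All CUS mice were above all controls, and the groups did not overlap, in either direction, for 2.7% of genes tested there. The mean rose from 277 ± 42.1 to 559 ± 88.6, a log2 fold change of 1.03 (SE 0.25, edgeR FDR 0.137). It rests on 229 UMIs, between 11 and 66 per mouse. All 9 members were tested in this class, with a median log2 fold change of 0.60 against 0.03 over all genes tested there. Values were 1.20 for Lrrtm2 (edgeR FDR 0.757), 0.72 for Nlgn3, 0.60 for Lrrtm1 and 0.60 for Nlgn2 (edgeR FDR 0.986 for these 3), each from 52 to 67 UMIs. Nrxn3 stood at 0.03, Nlgn1 at -0.09, Lrrtm3 at -0.16 and Lrrtm4 at -0.29. None of these 8 was called. The filter sums control and CUS mice, and Lrrtm2, Nlgn3, Lrrtm1 and Nlgn2 lay close to it in this class. The control mean of Lrrtm2, scaled over all classes, was 61.5 CPM, against 104 over all 8 mice. On the same scale Nlgn3 had 83.9 against 108, Lrrtm1 72.5 against 83.9 and Nlgn2 77.6 against 89.6 CPM. The values of these 4 genes, and the median of 0.60 that rests on them, thus support no direction. The Nrxn2 value was not called by DESeq2 (FDR 0.999) and remained called when CUS replicate 2 or control replicate 2 was left out, but not when any other mouse was left out, with a log2 fold change of 0.90 to 1.13 throughout.

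The effect on Nrxn2 in OPC-like nuclei was compared with that in the 3 other non-neuronal classes. The difference of the log2 effect was 0.70 against astrocyte-like nuclei (exact permutation test, two-sided, p = 0.0286, adjusted p = 0.0857), 0.78 against microglia-like nuclei (adjusted p = 0.257) and 0.50 against oligodendrocyte-like nuclei (adjusted p = 0.514). The first p is the smallest that 4 mice against 4 can give. OPC-like nuclei were taken up because the call fell there, and their Nrxn2 effect was the largest of the 27 classes. That choice favors a larger effect there than elsewhere, so the differences are given as a description and the p-values support no difference between classes.

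Nrxn2 had log2 fold changes above 0 in 26 of 27 classes, with a median of 0.40. In 10 of them the unadjusted p was under 0.05, including Ndst4-led (0.48, edgeR p 0.0075), Ex_L6-like (0.44, p 0.0159), Ex_L4-like (0.40, p 0.0178) and Ex_L2/3-like nuclei (0.33, p 0.0272). The same 8 mice stand behind every class. Lrrtm1 had values above 0 in 17 of 20 classes, with 0.38 (SE 0.18, edgeR FDR 0.417) in Ex_L2/3-like and 0.42 (SE 0.18, edgeR FDR 0.453) in Ex_L4-like nuclei. It lay close to the filter in some classes, such as Tshz2-led nuclei (62 UMIs over 463 nuclei). Scaled over all classes, its control mean there was 43.5 CPM, against 66.7 over all 8 mice. The filter sums control and CUS mice, so this count of classes supports no direction. In Ex_L2/3-like nuclei Lrrtm1 was 65.9, 46.8, 59.1 and 34.4 CPM in control and 77.6, 55.7, 69.8 and 65.9 in CUS mice, and the groups overlapped. Nlgn2 was above 0 in 12 of the 13 classes where it passed the filter. That filter sums control and CUS mice, and Nlgn2 lay close to it in some classes. It passed in Ex_L2/3-like nuclei (410 UMIs over 3682 nuclei) and not in C130073E24Rik-led nuclei (89 over 915). Scaled over all classes, the control mean in the latter was 54.0 CPM, against 43.0 over all 8 mice. The count of classes above 0 thus supports no direction. In Ex_L2/3-like nuclei the 4 CUS mice for Nlgn2 (34.9 to 51.5) were all above its controls (27.1 to 34.4), with a log2 fold change of 0.49 (SE 0.18, edgeR FDR 0.333). Nlgn2 lay close to the filter in this class too. Scaled over all classes, its control mean there was 39.6 CPM, against 46.7 over all 8 mice. Its values in this class, also with a mouse left out, thus support no difference. In that class 0.894% of 5369 genes were called, 11.4% had an unadjusted p under 0.05, and in 5.53% the groups did not overlap. Without CUS replicate 2, Nrxn2 (edgeR FDR 0.093), Nlgn2 (0.129), Lrrtm4 (0.130) and Lrrtm1 (0.178) were called in Ex_L2/3-like nuclei, where 13.7% of all genes were called in that fit, and Lrrtm1 (0.193) in Ex_L4-like nuclei, where 4.69% were. Other mice moved values in Ex_L2/3-like nuclei the other way. Without CUS replicate 1, Nrxn2 was 0.19 there (edgeR FDR 0.820) and Lrrtm4 -0.17 (FDR 0.880), and without control replicate 2 Lrrtm4 was again -0.17 (FDR 0.862).

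Values below 0 were found for Nrxn3 in 25 of 27 classes, Lrrtm4 in 23 of 27, Nlgn1 in 22 of 27 and Lrrtm3 in 20 of 26. These genes span over 100 kb, as does Nrxn2, whose values were above 0 in 26 of 27. For the first 4 the median log2 fold changes were -0.12, -0.23, -0.11 and -0.15. Lrrtm2 was divided, above 0 in 13 and below 0 in 10 of 23 classes. Nlgn3 was tested in 5 classes and was above 0 in 4, under the same limit of the filter as Nlgn2. Over all 195 pairs, 89 were above and 106 below 0 (49.3% of all gene and class pairs were below), 27 had an unadjusted p under 0.05 (5.88% of all gene and class pairs), and in 7 pairs the groups did not overlap (3.31% of all).

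**Figure D4:**
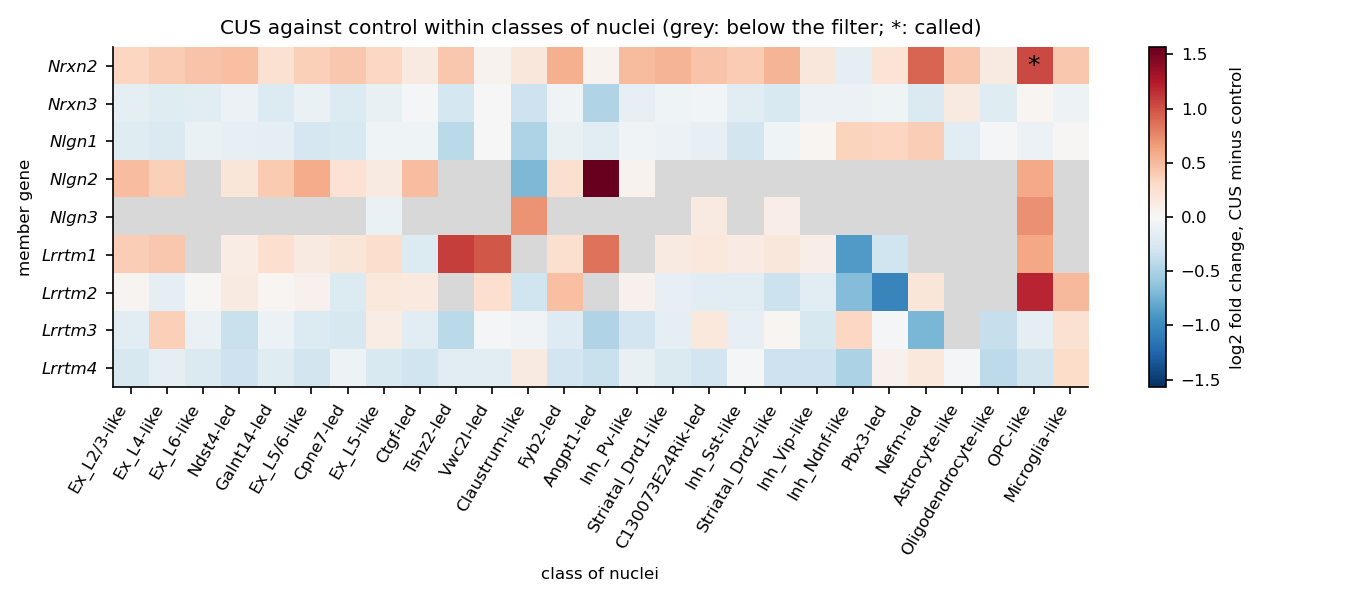
Log2 fold change of each member within 27 classes of nuclei, red for higher and blue for lower in CUS. Grey marks pairs below the filter on low counts, and the star marks Nrxn2 in OPC-like nuclei (1.03), the pair called at FDR 0.2. Nrxn2 is red in 26 of 27 classes.

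**Figure D5:**
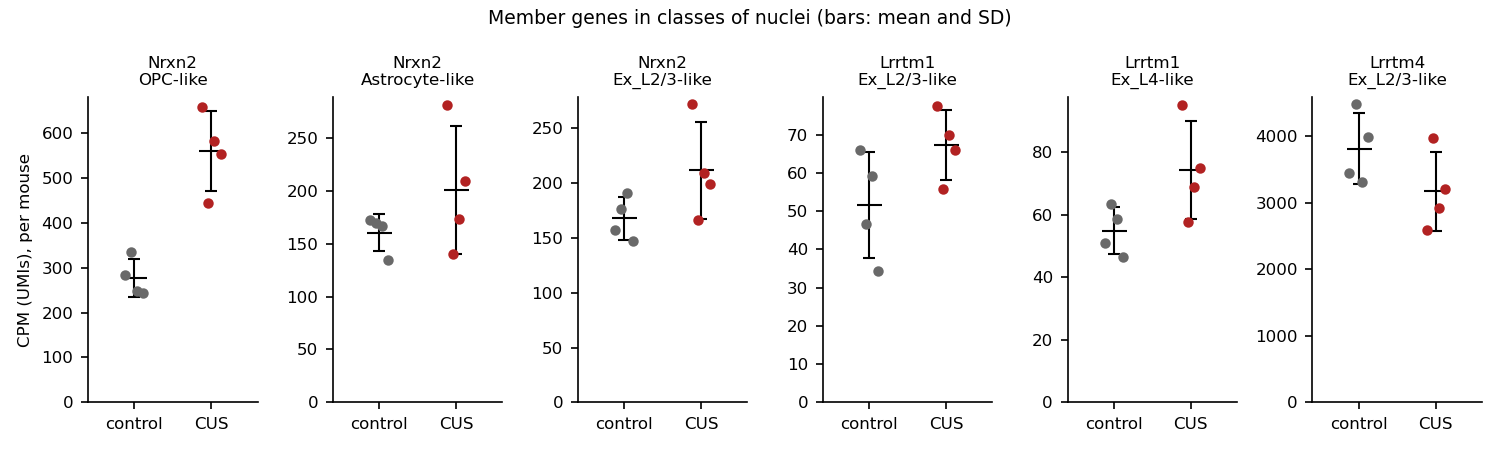
CPM in each of 4 control and 4 CUS mice, scaled within the class, with bars for mean and SD. Nrxn2 in OPC-like nuclei separates the groups (243 to 334 against 444 to 658), while Lrrtm1 and Lrrtm4 in Ex_L2/3-like nuclei overlap.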

How the data were processed

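Bulk files hold raw read counts per gene that the authors deposited after mapping reads to mm10 with STAR, keeping unique matches. Libraries were made with a stranded total RNA kit. The annotation release, and whether counting used strand or introns, are not given in the sources used here. The single-nucleus files hold UMI counts per gene and barcode, deposited by the authors from exonic and intronic reads on the annotated strand (mm10), with 5000 barcodes per mouse and before the study's limits on genes and mitochondrial UMIs.

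Counts were tested with edgeR 4.0.16 (quasi-likelihood, TMM factors, Benjamini-Hochberg FDR of 0.05 in bulk and 0.2 in nuclei) in R 4.3.3, across all genes that passed a filter on low counts (in nuclei, UMIs above 10% of the number of nuclei). DESeq2 1.42.0 was an alternative. p-values cover the spread between mice. Nuclei had 600 to 5000 genes, mitochondrial UMIs below 5% and a Scrublet score (scanpy 1.11.5) of at most 0.2, which removed 15.2% as doublets, and were clustered in Seurat 5.3.0 (resolution 1) without the 9 members among the variable genes. Class names follow marker lists by a rule set after the clusters were seen, without regard to condition. UMIs were summed per mouse and class. The study corrected for batch, and the design used here has no batch term because the labels give none. Levels were compared between classes by an exact sign-flip test on log2(CPM + 1).

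Scripts were tested on simulated data. Members, partner lists and markers were chosen with earlier results of these data known. Named were the members, called partners, overlapping genes and the 2 most similar genes per member. Alternatives were another test, scaling, filter, clustering resolution, gene minimum or doublet rule, a replicate block and leaving out each mouse. The labels do not say that replicate numbers of the 2 conditions pair mice. Correlations of deviations between mice of the same number were 0.03, 0.23, 0.04 and 0.13 in bulk and 0.36, -0.07, 0.40 and -0.45 in nuclei. These are too few values to show or exclude pairing. The RefSeq promoter windows (GRCm38.p6) are as given.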

Additional observations from a re-analysis of the deposited data

Results flagged for a closer look

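Of 56 groups of mice examined, 4 held 1 mouse far from the others, where chance gives about 1 in 20. In bulk, Nrxn3 was 5422 CPM in control replicate 4, against 6397 to 6528 CPM in the other controls. Nlgn2 was 50.2 CPM in CUS replicate 5, against 44.3 to 44.9 CPM in the other CUS mice. In all nuclei summed, Lrrtm1 was 64.3 CPM in control replicate 1, against 54.9 to 56.0 in the other controls. In Ex_L2/3-like nuclei, Nrxn3 was 3535 CPM in CUS replicate 2, against 2442 to 2627 in the other CUS mice.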

How the results depend on the processing

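Lrrtm1 in bulk was called under all 14 alternatives, with log2 fold changes of 0.50 to 0.57 and FDR values up to 0.034. The number of members called in bulk was 1, and 2 with DESeq2 and without TMM factors (Lrrtm1 and Lrrtm4), and 1 to 2 with a mouse left out (Nrxn2 was added without control replicate 3). In all nuclei summed the count was 0, 1 without the filter on low counts (Nrxn2), and 0 to 4 with a mouse left out, the 4 without CUS replicate 2 (Nrxn2, Nlgn2, Lrrtm1 and Lrrtm4). Within classes the count was 1, 0 with DESeq2, 0 without the filter, 0 with at least 1000 genes per nucleus, where OPC-like and Nefm-led nuclei could not be fitted, and 0 to 8 with a mouse left out, the 8 again without CUS replicate 2. Leaving out that mouse raised calls over all genes, to 16.2% in all nuclei, 13.7% in Ex_L2/3-like and 4.69% in Ex_L4-like nuclei. With all mice the share was 0.894% in Ex_L2/3-like nuclei. The 8 pairs are thus no result about the members. The count of neighboring classes that differ was 0 throughout. The cause of these moves was not tested.

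Directions turned for values near 0. Nlgn1 in bulk ranged from -0.017 to 0.071 and Nlgn3 from -0.00028 to 0.050 with a mouse left out. Lrrtm2 in all nuclei was -0.017 without the filter, -0.0026 with the replicate block, -0.0024 with at least 1000 genes and -0.071 to 0.072 with a mouse left out, and in Ex_L2/3-like nuclei it was -0.049 with at least 1000 genes and -0.042 to 0.13 with a mouse left out.

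Calls over all genes in bulk were 606, 1330 by likelihood ratio test, 1402 by DESeq2, 238 with the replicate block and 133 to 1508 with a mouse left out. The 1508 calls were those without control replicate 3. In all nuclei they were 1, 17 by likelihood ratio test, 22 by DESeq2, 309 without the filter and 0 to 828 with a mouse left out. The labels do not say that the replicate numbers pair mice, and with the replicate block the member counts stayed at 1, 0 and 1. The differences of the Nrxn2 effect ranged, with a mouse left out, from 0.64 to 0.81, 0.53 to 1.03 and 0.14 to 1.11 against astrocyte-like, microglia-like and oligodendrocyte-like nuclei. Low UMI counts limit Nlgn2 and Nlgn3 in most classes.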
